A study of Mus musculus with 2 samples.

Results

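The heme synthesis genes are the 8 enzyme genes Alas1, Alas2, Alad, Uros, Urod, Cpox, Ppox and Fech and the mitochondrial carrier gene Slc25a38. They were taken by symbol as all array probes whose transcript accession belongs to 1 of these genes, which gave 10 probes for 9 genes among 10223 genes measured on both arrays. SoNar is a fluorescent protein sensor, encoded by a gene put into the cells, that reads the balance of NADH and NAD+ in the cytosol. Mouse fetal liver blood cells of stage E13.5 were sorted into SoNar-high and SoNar-low cells by the fluorescence ratio F405/F488 (excitation in nm). RNA from the cells of each sort went to its own Agilent array, labelled in 1 colour. The SoNar-high sample is labelled C57BL/6 and the SoNar-low sample C57BL. No drug, mutation or other allele beside the sensor is named in the labels, which do not say how the sensor was delivered or how many embryos were pooled. With 1 array per group there is no replicate, so no p-value is given and every comparison is between these 2 arrays.

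Heme is an iron-containing porphyrin, and red cell precursors make it in large amounts for hemoglobin. The pathway starts in the mitochondrion, where glycine and succinyl-CoA are joined by an aminolevulinate synthase, continues in the cytosol through a series of porphyrin intermediates and returns to the mitochondrion for the last steps, where iron is inserted. There are separate genes for the first enzyme, the housekeeping form Alas1, which most tissues express, and the erythroid form Alas2, whose gene is on the X chromosome. The fetal liver is the main site of red cell formation in the midgestation embryo, and its hepatoblasts also make heme.

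All 9 genes had a higher signal in the SoNar-high array, by 1.25-fold (Uros) to 2.99-fold (Alad) after each array was divided by the 75th percentile of its own signals, but that of Alas1 (1.42-fold) fell to 1.00-fold under normexp, another background correction. Of the 9, 4 were at least 2-fold higher (Alad, Fech, Alas2 and Ppox), 5 were within 2-fold and none was at least 2-fold lower. Over all measured genes, 5.28% reached 2-fold in the same direction and 4.44% in the opposite one, and 44.2% had a difference above 0. Their median difference was 0.94 (log2, SoNar-high minus SoNar-low), beside a median of -0.08 over all measured genes. The differences ranked from 147 (Alad) to 2534 (Uros) of 10223 when counted from the highest.

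The bases before the start site of Alas2 and Cpox are shown because their genes lie far apart in the order of differences and their windows both hold the core letters bound by GATA factors. A short stretch at a start site of Alas1 is shown for contrast with its erythroid counterpart. The sequences are from RefSeq (GRCm38.p6) and run 5′ to 3′ on the strand of the gene. Capitals mark GATA letters in Alas2 and Cpox (GATA with A or T before it and A or G after it, on either strand) and the core letters of an NRF1 site in Alas1.
Alas2, chrX:150547167-150547416, plus strand: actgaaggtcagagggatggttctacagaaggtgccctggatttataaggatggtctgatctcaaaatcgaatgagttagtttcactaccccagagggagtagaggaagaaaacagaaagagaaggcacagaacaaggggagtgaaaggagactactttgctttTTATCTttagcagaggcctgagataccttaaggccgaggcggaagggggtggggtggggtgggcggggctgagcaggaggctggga
Cpox, chr16:58669958-58670207, plus strand: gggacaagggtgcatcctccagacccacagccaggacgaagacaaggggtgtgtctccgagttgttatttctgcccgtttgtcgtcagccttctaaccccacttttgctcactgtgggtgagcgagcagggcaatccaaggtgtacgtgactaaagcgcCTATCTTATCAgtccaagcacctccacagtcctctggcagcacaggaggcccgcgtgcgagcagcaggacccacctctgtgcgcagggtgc
Alas1, chr9:106247945-106247974, minus strand: tgccgggccggcttcggcgcGCGCGTGCGC

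RefSeq windows of 250 bases before to 50 after a start site were used for 8 of the 9 genes. There were 11 windows in all because Alad, Alas1 and Uros have several start sites. No window of Fech was used, so the counts of letters do not cover it. GATA letters occurred in 3 of the 11 windows, 1 each of Alas2, Cpox and Uros, and in 29.8% of all 32851 windows of the same length. Shares over all windows are per window and are not directly comparable with counts of genes. The Alas2 window held 1 match, 86 to 81 bases before the start site. The Cpox window held 3, of which 2 share a base and lie 91 to 81 bases before the start and the third lies 5 to 10 bases after it. The genes with GATA letters had differences of 1.24 (Alas2), 0.34 (Cpox) and 0.32 (Uros, in 1 of its 2 windows). The windows of Alad (1.58), Ppox (1.01), Slc25a38 (0.94), Urod (0.82) and Alas1 (0.51) held none of these letters. A link between the letters and the differences was not tested. The letters CACCC, the core of sites for Klf1-type factors, occurred on either strand in windows of 6 genes. Both windows of Alas1 and 1 of the 2 of Alad held them, and the share over all windows was 57.5%. The Alas2 window had 3 CACCC matches between 40 and 26 bases before the start. NRF1 core letters (either strand) were found in 2 genes, with 2 matches that both overlapping Alas1 windows share and 1 in a window of Uros, and in 4.60% of all windows, and NFE2 letters (TGANTCA, either strand) in none of the 11 windows and in 7.81% of all windows. The Alas2 window had 6 CpG pairs and 52.3% G and C, and the window at the outer Alas1 start 27 CpG pairs and 65.3%. A match of letters is a description of the sequence and does not show that a factor binds there.

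Both arrays came from the same slide scan. Of 43020 non-control spots, 49.4% in SoNar-high and 42.4% in SoNar-low passed the scanner's test for a signal well above background. The processed (background-subtracted and detrended) signal had a 75th percentile of 186.5 units in SoNar-high and 222.2 units in SoNar-low, so scaling adds 0.25 (log2) to every difference. All 10 heme synthesis probes were well above background and unsaturated on both arrays, with processed signals of 154.8 to 6897 units over local backgrounds of 14 to 25 units. The scanner software's own error estimate, about 10% of a signal, gave a difference an error of 0.20 to 0.22 (log2). Single spot pairs of 205 probes printed repeatedly on both arrays had a median SD of 0.15 in their difference. These errors cover spots on these arrays only and not embryos, sorts or labelling reactions, which 1 array per group cannot show. Of the 9 differences, 7 exceeded 2 times the scanner error, and those of Uros and Cpox did not. Signals of different probes are not comparable as amounts, so levels are compared only within a probe.

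Erythroid Alas2, whose product commits glycine and succinyl-CoA to the pathway in red cell precursors, had a processed signal of 5312 ± 531 units in the SoNar-high array and 2678 ± 268 units in the SoNar-low array (± scanner error). After scaling it was 2.36-fold higher in SoNar-high cells (1.24 on the log2 scale), and all 7 other scalings and background corrections left it at or above 2-fold, between 2.07-fold and 2.77-fold. Housekeeping Alas1 had 4467 ± 447 units against 3747 ± 375 units at its brighter probe, which is 1.42-fold higher (0.51), and 182.0 ± 19.2 units against 154.8 ± 17.5 units at its other probe, which is 1.40-fold higher (0.49). With this scaling the difference of Alas2 exceeded that of Alas1 by 0.73 (log2), or 1.66-fold. The spread between spots would give such a difference of differences an SD of 0.21.

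The brighter Alas1 probe owed most of its difference to a step of the scanner software that corrects for position on the slide (multiplicative detrending). Before that step its background-subtracted signal was 3709 units in the SoNar-high and 4303 units in the SoNar-low array, a ratio of 0.862 before scaling and a scaled difference of only 0.04. The correction multiplied this spot by 1.20 on the SoNar-high and by 0.871 on the SoNar-low array, and the resulting shift of 0.47 (log2) was larger than that of 99.7% of 17722 spots well above background on both arrays. The spot lies in row 5 of the array. The other Alas1 probe, in row 310, was moved by 0.03 and had 0.46 before the step, while the other 8 genes were moved by -0.06 to 0.15. Without the step Alas2 exceeded Alas1 by 1.07 at the brighter probe and by 0.66 at the other, so a larger difference for Alas2 was seen at both probes with and without it. The value at the brighter Alas1 probe ran from 0.0052 under normexp, another background correction, which also starts before that step, to 0.73 after loess scaling. Whether Alas1 differed between the arrays is therefore not settled by this probe, while its other probe had 0.31 under normexp and 0.45 in the deposited value table.

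**Figure D1:**
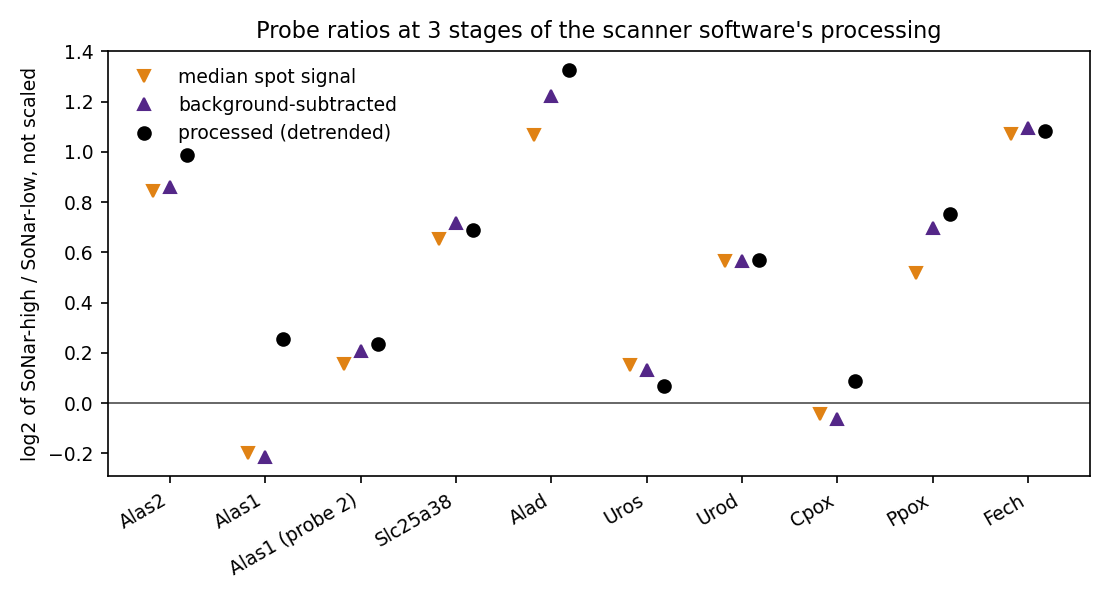
Log2 of the ratio of SoNar-high to SoNar-low signal for each of the 10 heme synthesis probes, before scaling between arrays, at 3 stages: median spot signal (triangles pointing down), background-subtracted signal (triangles pointing up) and processed signal after multiplicative detrending (circles). The brighter Alas1 probe and Cpox lie below 0 before detrending (ratios of 0.862 and 0.956 after background subtraction) and above 0 after it (1.19 and 1.06), and the other 8 probes are above 0 at all 3 stages.

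Slc25a38, the inner membrane carrier that brings glycine into the mitochondrion for the first step, had 1951 ± 195 units in the SoNar-high and 1211 ± 121 units in the SoNar-low array. It was 1.92-fold higher (0.94) and passed 2-fold under 4 of those 7 settings. Its difference lay between those of Alas2 and Alas1.

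The cytosolic enzymes spanned the whole range of the set. Alad, which joins pairs of aminolevulinate into the pyrrole porphobilinogen, had 936.1 ± 93.8 units against 373.5 ± 38.2 units and was 2.99-fold higher (1.58). Uros, which closes the porphyrin ring into its usable isomer, had 667.6 ± 67.1 units against 636.4 ± 64.3 units and was 1.25-fold higher (0.32). Urod, which removes carboxyl groups from the ring's side chains, had 5014 ± 501 units against 3379 ± 338 units and was 1.77-fold higher (0.82). The signal of Uros on the 2 arrays differed by less than the scanner error before scaling, and the scaling between arrays adds 0.25 of its 0.32. Alad stayed at or above 2-fold under all 7 settings (2.39-fold to 3.41-fold), and Uros reached it under none (0.33 to 0.52).

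The last steps again take place in the mitochondrion. Cpox, which oxidises coproporphyrinogen in the intermembrane space, had 3036 ± 304 units against 2858 ± 286 units and was 1.27-fold higher (0.34), and before scaling its signals differed by less than the scanner error. Ppox, which oxidises the ring to protoporphyrin, had 409.4 ± 41.4 units against 242.8 ± 25.6 units and was 2.01-fold higher (1.01). Fech, the ferrochelatase that inserts iron, had 6897 ± 690 units against 3251 ± 325 units and was 2.53-fold higher (1.34). Ppox lay at the threshold, with 5 of the 7 settings at or above 2-fold and 1.62-fold as the lowest, while Fech kept 2.43-fold to 2.94-fold under all 7.

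**Figure D2:**
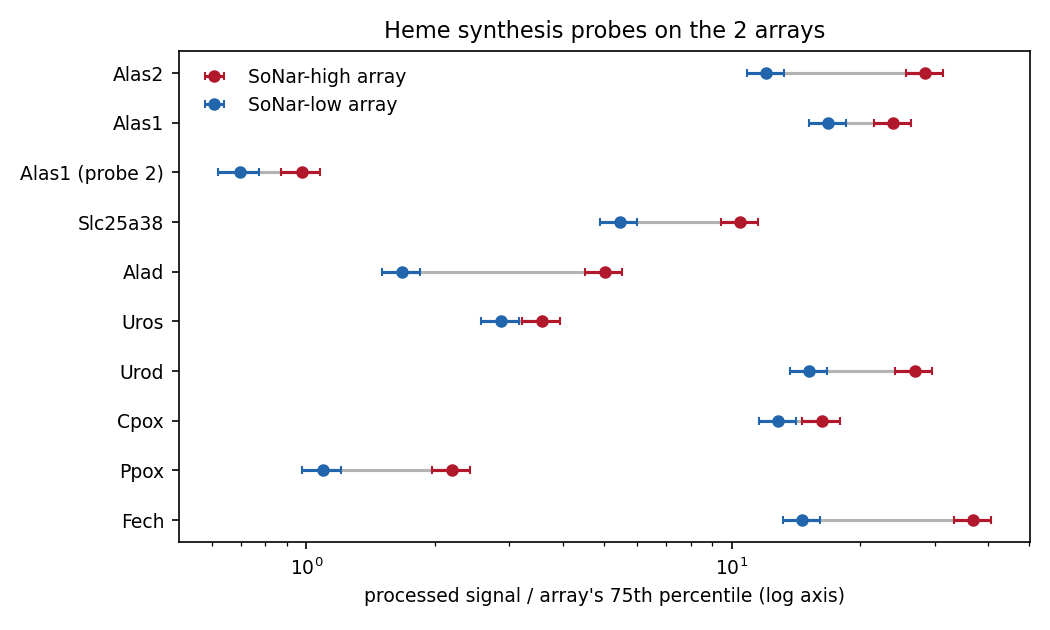
Processed signal divided by each array's 75th percentile (log axis) for the 10 heme synthesis probes in pathway order, SoNar-high array in red and SoNar-low array in blue; bars are the scanner software's error estimate. Every red point lies to the right of its blue point, with the widest gap at Alad (2.99-fold) and the narrowest at Uros (1.25-fold), and positions of different probes are not comparable as amounts.

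Along the pathway the differences did not follow a steady order. The first erythroid enzyme (Alas2, 1.24), the second step (Alad, 1.58) and the final step (Fech, 1.34) had the largest values, and Uros (0.32) and Cpox (0.34), in the middle of the pathway, the smallest. Mitochondrial proteins (Alas2, Alas1, Slc25a38, Cpox, Ppox and Fech) had differences from 0.34 to 1.34 with a median of 0.97, and the 3 cytosolic enzymes from 0.32 to 1.58 with a median of 0.82, so the ranges overlapped almost wholly. In the order of size, each gene differed from the next by 0.02 to 0.32, and only the gap between Urod and Alas1 (0.32) exceeded the combined scanner error of its pair (0.29). Genes that follow each other closely, such as Fech and Alas2 (0.10 apart) or Ppox and Slc25a38 (0.07 apart), therefore have no settled order. The genes split into 6 with values of 0.82 or more and 3 (Alas1, Cpox and Uros) with values of 0.51 or less.

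**Figure D3:**
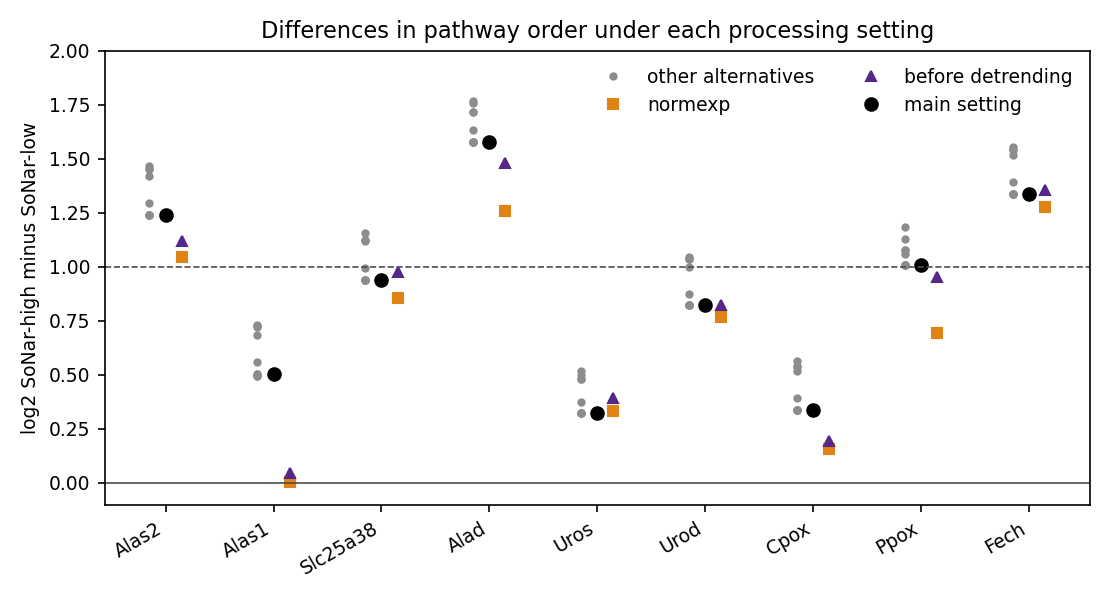
Difference between SoNar-high and SoNar-low (log2) of each heme synthesis gene in pathway order, with the main setting as black circles, normexp background correction as orange squares, values before detrending as purple triangles and other alternatives as grey dots; the dashed line marks 2-fold. Alad, Fech and Alas2 are above the dashed line under every setting shown, and Alas1, Uros and Cpox below it.

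**Figure D4:**
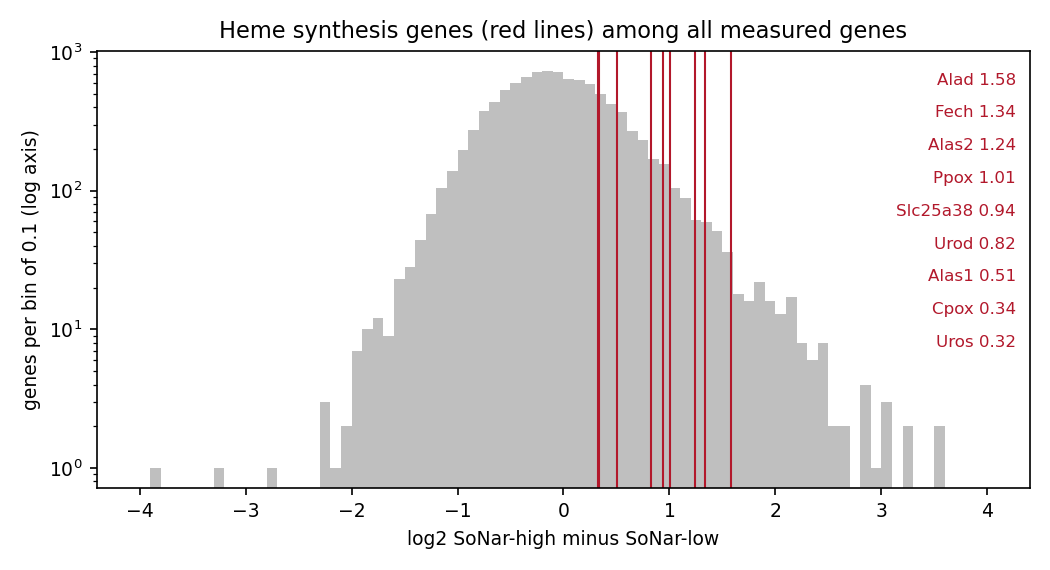
Number of genes (log axis) in bins of 0.1 of the difference between SoNar-high and SoNar-low (log2) for all 10223 measured genes, with red lines at the 9 heme synthesis genes and their values listed at the right. All 9 lines lie right of 0, from 0.32 to 1.58.

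Other genes of heme metabolism were described through lists of genes by role. Of 10 further genes of mitochondrial carriers and their partners, 9 were measured, 3 of them reached 2-fold in favour of SoNar-high, none the other way, and the median was 0.82. Fam210b, a mitochondrial protein of erythroid iron metabolism, had 1.52, the translocator protein gene Tspo2 of late erythroid cells 1.18 and the porphyrin transporter Abcb6 1.01. Slc25a37, the mitoferrin that imports iron in erythroid cells, had 0.95 at its brighter probe and 1.56 at its other probe. Tmem14c, needed for the import of a late porphyrin intermediate, had 0.44. Abcb10, a mitochondrial transporter that partners mitoferrin, had -0.29. Slc25a39 was not well above background on either array. Under normexp 1 gene of this list, in place of 3, reached 2-fold, and after loess 5 did.

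The genes that supply the first step were split. Slc6a9, a plasma membrane glycine transporter, was 2.12-fold higher (1.08), with 1011.7 units against 568.5 units, and Ogdh, the dehydrogenase subunit that yields succinyl-CoA, was 2.04-fold higher (1.03), with further probes down to 0.16. Under normexp neither reached 2-fold (Slc6a9 0.99, Ogdh 0.83). The other 4 genes of that list were lower in the SoNar-high array, from -0.39 for Suclg1 to -0.35 for Suclg2. Suclg1 and Suclg2 encode subunits of succinyl-CoA ligase, which interconverts succinyl-CoA and succinate. Of the protease genes that turn over or activate aminolevulinate synthase, Clpx had -0.24, Lonp1 -0.22 and Clpp 0.18, a value that changed sign under 2 of 7 other scalings and background corrections.

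Iron-sulfur and iron-sensing genes had a median of -0.29, with none of 7 measured genes at least 2-fold higher or lower. Glrx5, a glutaredoxin of iron-sulfur cluster assembly, had the highest value, 0.54, Fdxr, a ferredoxin reductase, had -0.04, a sign that changed under 3 of 7 other settings, and Fdx1, a ferredoxin, was lowest at -0.63. The iron sensors Ireb2 and Aco1 were not well above background on either array. Genes of heme export and trafficking had a median of -0.25, with Hebp1, a heme-binding protein gene, 2.07-fold higher (1.05; 0.90 under normexp) and Flvcr1, a heme exporter, at -0.82. In the heme breakdown list all 4 genes had positive differences, with a median of 0.45. Hmox1, the inducible heme oxygenase, had 3101 units against 516.7 units and was 7.15-fold higher (2.84), while its constitutive relative Hmox2 had 0.16.

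Among transcription factors that act on heme synthesis genes, 1 of 7 measured genes reached 2-fold (none under normexp, 2 under 5 other settings) and the median was 0.38. Klf1, the erythroid Kruppel-like factor, had 1.31 (0.93 under normexp), the Nfe2 subunit 0.98 and Gata1, the erythroid GATA factor, 0.38. Bach1, a heme-sensing repressor, had -0.34, and Nrf1, which acts on Alas1 and genes of respiration, -0.10, a sign that changed under 4 of 7 other settings. Ppargc1a, a coactivator of Alas1 in liver, was not well above background on either array. Eif2ak1, the heme-regulated kinase that restrains translation when heme is short, had 0.82 (0.53 under normexp). Atf4, a factor that acts downstream of it, had -0.73 at its brighter probe (-0.26 under normexp) and -0.46 at its other probe. The 8 measured globin genes, whose proteins carry the heme, all had positive differences, with a median of 0.90 and a range from 0.33 (Hba-a2) to 1.55 (Hbb-bs). Globin genes are close copies, so a probe may bind transcripts of several of them.

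**Figure D5:**
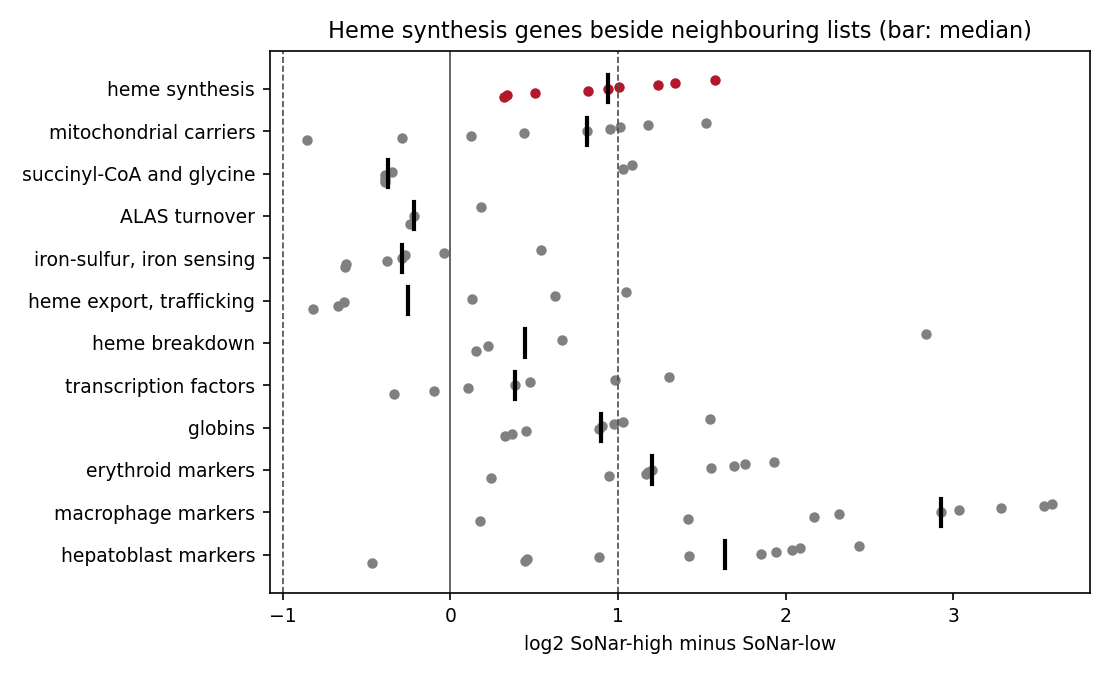
Differences between SoNar-high and SoNar-low (log2) of the measured genes of 12 lists, 1 point per gene, with the median of each list as a black bar, heme synthesis genes in red and 2-fold marked by dashed lines. The heme synthesis median (0.94) lies near those of mitochondrial carriers (0.82) and globins (0.90), below those of erythroid (1.20), macrophage (2.93) and hepatoblast markers (1.64), and above those of the supply, turnover, iron-sulfur and export lists.

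Like the heme synthesis genes, markers of red cell precursors and of some other cells had positive median differences. Erythroid markers had 7 of 9 measured genes at least 2-fold higher (4 under normexp), with a median of 1.20 and a summed scaled signal of 62.8 in the SoNar-high and 26.6 in the SoNar-low array. Epb42 (protein 4.2 of the red cell membrane) had the largest value, 1.93, and Tfrc (the transferrin receptor) the smallest, 0.25. Rhag stood well above background in SoNar-high alone and Sptb in neither array. Such sums are weighted towards bright probes (Slc4a1, the anion exchanger of the red cell membrane, had 7107 units in SoNar-high) and are not compared between lists. Hepatoblast markers, whose cells also express Alas1, had 6 of 10 measured genes at least 2-fold higher with a summed signal of 85.5 against 31.2, and both Alb (3324 units against 1094 units) and Afp (5219 units against 2343 units) were present in each array. The 4 hepatoblast markers within 2-fold were Krt18 (-0.47), Hnf4a (0.44), Dlk1 (0.46) and Apoa2 (0.89), of which Krt18 alone was lower. Krt8 and Apoa1 of that list were on neither array well above background, and Ttr was so in SoNar-high alone. Macrophage markers, led by Marco (3.59), had 8 of 9 measured genes at least 2-fold higher and a summed signal of 101.9 against 38.7. The lowest was Csf1r at 0.18, and Timd4 and Fcna stood well above background in SoNar-high alone. Pan-leukocyte genes had a median of 0.01, whose sign changed under 2 of 7 other settings, and a summed signal of 83.0 against 88.5. Of these 5 genes 3 had positive and 2 negative differences, from 0.48 for Ptprc, the common leukocyte antigen, to -0.88 for Cd48. Fewer cells of a type and less RNA per cell cannot be told apart in such sorted samples, and the part of these cell types in the heme synthesis differences was not tested.

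The remaining cell markers divided in 2 directions. Endothelial markers had 4 of 5 measured genes at least 2-fold higher (median 2.56), from Cdh5 at 3.07 to Pecam1 at 0.01. Tek of that list stood well above background in SoNar-high alone. Mesenchymal markers had 3 of 4 at least 2-fold higher (1 under normexp), with a median of 1.29. Sparc led them at 2.33 and Pdgfrb was lower at -1.39, with Col3a1 and Dcn well above background in SoNar-high alone. Neutrophil markers had 3 of 9 at least 2-fold higher (median 0.67), from Mmp8 at 2.46 to Ngp at -0.19. Stem and progenitor markers had 3 of 9 at least 2-fold lower (median -0.84, lowest Angpt1 at -1.90). That count was 6 before detrending and 2 under all other scalings and background corrections. B lymphoid markers had 5 of 8 at least 2-fold lower (median -1.54, lowest Vpreb1 at -1.90). T and natural killer markers had 3 of 5 (median -1.39, lowest Gzma at -3.90), while the other 2 were higher (Cd3e 0.87, Nkg7 0.22). Cd3g and Il2rb of that list stood well above background in SoNar-low alone.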

How the data were processed

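Total RNA of the SoNar-high and SoNar-low cells was labelled with Cy3, per the labels' protocols. Spot intensities (processed, background-subtracted, median and background signals with an error estimate) are intensity values that the authors deposited straight from the scanner, made with Agilent Feature Extraction 11.0.1.1 per the file headers, while the submitters' processing notes name 9.1. The log2 value table deposited by the authors, with a normalization not given in the sources used here, served as an alternative. Its columns share a median of 4.80, and its differences correlated with those of the scanner at 0.966 over measured probes, which set its direction.

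Control and outlier-marked spots (225 and 135) were left out, and signals were divided by their array's 75th percentile (of 43020 non-control spots) before taking log2. A probe counted as measured when, on both arrays, over 50% of its spots stood well above background and none was saturated (15975 probes). A gene was represented by its brightest measured probe. Probes were named through transcript accessions in a RefSeq gene table (GRCm38.p6, names only, as the array design refers to mm9), which named 27229 of 39420 probes.

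With 1 array per group no test was run, and 2-fold was the fixed size. The members and lists were chosen with earlier results of these data known. All probes of the 9 genes are named, with 10 further genes of heme metabolism fixed by name, those with the largest and smallest difference of each list and other list members of known role; some genes this rule names are not reported here. Alternatives were normexp (offset 50), quantile, loess (span 0.3), other percentiles, the value table, dim probes kept, a signal of at least 100 and the median or mean over probes; values before detrending were added after seeing the data. A value was taken to have moved past the spot SD of 0.15 (0.21 between genes). The counting was tested on simulated data. Python 3.11.15 and limma 3.58.1 were used.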

Additional observations from a re-analysis of the deposited data

How the results depend on the processing

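Of the 9 heme synthesis genes, 8 kept a positive difference larger than the spot SD of 0.15 under the 11 alternatives run (4 of which cannot change a gene with 1 bright probe), while Alas1 had 0.0052 under normexp and 0.04 before detrending. The count of 4 genes at least 2-fold higher ranged from 3 (normexp, and before detrending) to 6 (quantile, loess and the value table), and was 0 at 3-fold. The median of 0.94 moved to 1.12 with the 75th percentile of detected probes, which shifted the median of all genes by 0.18, to 1.13 after loess (shift 0.10) and to 0.77 under normexp. The excess of Alas2 over Alas1 of 0.73 moved to 1.04 under normexp and to 1.07 before detrending. The split of all genes, 540 at least 2-fold higher and 454 lower, was 817 and 227 with the percentile of detected probes, 649 and 347 after loess, 251 and 257 under normexp and 2476 and 659 with dim probes kept. No paired analysis was possible because each group has 1 array, and no replicate could be left out. All 10 probes were well above background on both arrays, but the handling of background still changed values. The ratio of Ppox before scaling was 1.43 for the median spot signal and 1.62 after background subtraction. Its scaled difference of 1.01 was 0.69 under normexp.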
